A study of Mus musculus with 2 samples.

Results

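The genes described here are *Neurog3*, which encodes the proendocrine factor NGN3, and 9 transcription factor genes that act with it or after it in the endocrine progenitors of the pancreas, namely *Neurod1*, *Insm1*, *Pax4*, *Nkx2-2*, *Myt1*, *St18*, *Rfx6*, *Rfx3* and *Mnx1*. Members were the probe sets whose only gene symbol is one of these names, and all 10 genes were found, each with 1 probe set, among 19938 genes measured in this way. The RNA came from whole E15.5 pancreata on the ICR background and was read on Affymetrix mouse gene arrays, 1 for wild-type (WT) and 1 for *Mafk* transgenic (*Mafk*-Tg) embryos. *Mafk*-Tg embryos carry a FLAG-tagged mouse *Mafk* cDNA under the rat insulin I promoter, which is active in insulin-producing cells, and WT embryos carry no transgene. The study names 3 pancreata per genotype, and whether these were pooled on an array is not given in the sources used here.

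During pancreatic development NGN3 is switched on for a short time in single cells of the trunk epithelium, and these cells leave the epithelium and become the hormone-producing cells of the islets. NGN3 is a basic helix-loop-helix protein that turns on further transcription factors, among them zinc finger, homeodomain and RFX proteins, which carry the cell on to an α-, β-, δ- or PP-cell. Around E15.5, in the secondary transition, new endocrine cells form in large numbers. Most of these factors also act in the endocrine cells of stomach and intestine, and several act in neurons.

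The values are log2 array values, and a difference is the *Mafk*-Tg value minus the WT value. The cutoff was the study's 1.2-fold, which is 0.26 on the log2 scale. Each genotype has a single array, which leaves no replicates, so the differences are descriptions without a test or an error. The median of all probe sets serves here as a mark of brightness, and genes that reach it on the mean of both arrays are called bright and the others dim. Across the bright genes the differences had a robust SD of 0.15, a spread among genes and not among embryos. *Mafk* itself read 6.749 in WT and 6.997 in *Mafk*-Tg, so it differed by 0.25 and stayed under 1.2-fold. The 2 arrays stand apart in sex-linked genes, since *Xist* read 4.40 in WT and 11.30 in *Mafk*-Tg and the Y-linked *Eif2s3y*, *Uty* and *Kdm5d* had differences of -5.68, -4.67 and -3.93. Sex-linked expression and genotype therefore cannot be told apart in any value below, although 0 of the 10 genes lie on the X or Y chromosome. They lie on 6 autosomes, with *Neurod1*, *Insm1*, *Nkx2-2* and *Myt1* on chromosome 2 and *Neurog3* and *Rfx6* on chromosome 10.

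The DNA just upstream of 4 of the genes is shown. *Neurog3* and *Rfx6* have the highest differences, *Neurod1* is the only one of the 7 genes in the promoter table with the half-site of the MAF motif, and *Nkx2-2* is a bright gene with almost no difference. Each sequence is the 250 bases before the transcription start, 5′ to 3′ on the strand of the gene, from RefSeq on build GRCm38.p6. Capitals mark the E-box, CANNTG, the letters that helix-loop-helix proteins such as NGN3 and NEUROD1 bind, and TGCTGA, the half-site of the MAF recognition element (MARE) that MAFK binds. Both strands were searched, and matches of the 2 motifs did not overlap each other. The windows lie at chr10:62132840-62133089 on the plus strand for *Neurog3*, chr10:51685268-51685517 on the plus strand for *Rfx6*, chr2:79456637-79456886 on the minus strand for *Neurod1* and chr2:147186403-147186652 on the minus strand for *Nkx2-2*.
Neurog3: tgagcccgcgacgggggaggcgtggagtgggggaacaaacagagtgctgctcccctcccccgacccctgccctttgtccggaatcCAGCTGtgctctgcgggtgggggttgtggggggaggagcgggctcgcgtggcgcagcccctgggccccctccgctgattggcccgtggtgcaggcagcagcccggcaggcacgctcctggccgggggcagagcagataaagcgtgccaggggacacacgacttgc
Rfx6: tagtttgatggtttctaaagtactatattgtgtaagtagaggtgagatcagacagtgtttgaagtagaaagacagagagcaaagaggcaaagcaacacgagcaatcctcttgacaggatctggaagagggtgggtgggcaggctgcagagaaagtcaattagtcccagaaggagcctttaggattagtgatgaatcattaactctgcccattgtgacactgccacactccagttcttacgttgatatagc
Neurod1: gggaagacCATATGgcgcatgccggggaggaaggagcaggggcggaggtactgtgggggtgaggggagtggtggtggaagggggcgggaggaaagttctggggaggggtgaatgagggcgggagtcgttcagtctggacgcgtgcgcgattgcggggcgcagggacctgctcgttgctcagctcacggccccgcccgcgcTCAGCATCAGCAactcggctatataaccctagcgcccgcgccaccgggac
Nkx2-2: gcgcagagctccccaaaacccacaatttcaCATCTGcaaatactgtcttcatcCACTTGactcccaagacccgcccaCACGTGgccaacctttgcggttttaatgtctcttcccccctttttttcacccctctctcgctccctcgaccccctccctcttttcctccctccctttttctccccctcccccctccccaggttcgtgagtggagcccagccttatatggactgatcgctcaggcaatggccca

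Of the 10 genes, 7 had an entry in the promoter table, with 9 windows because *Myt1* has 3 start sites. *Insm1*, *Pax4* and *St18* were not among them. An E-box lay in a window of 5 of the 7 genes. Of all 32851 windows of the same length 66.2% hold one, which is a share per window and not per gene. With 3 windows, *Myt1* had more chances of a match. The *Neurog3* window has a single E-box with its first base at -165, and *Nkx2-2*, which hardly differed between the arrays, has 3. *Rfx6* and *Rfx3* have none in these windows. The MARE half-site is in 16.1% of all windows, again a share per window. Among the 7 genes it was found upstream of 1, *Neurod1*. It lies there as 2 adjoining copies on the opposite strand, with their first bases at -50 and -44, close to the start. A match is a run of letters and says nothing of whether a protein binds there.

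**Figure D1:**
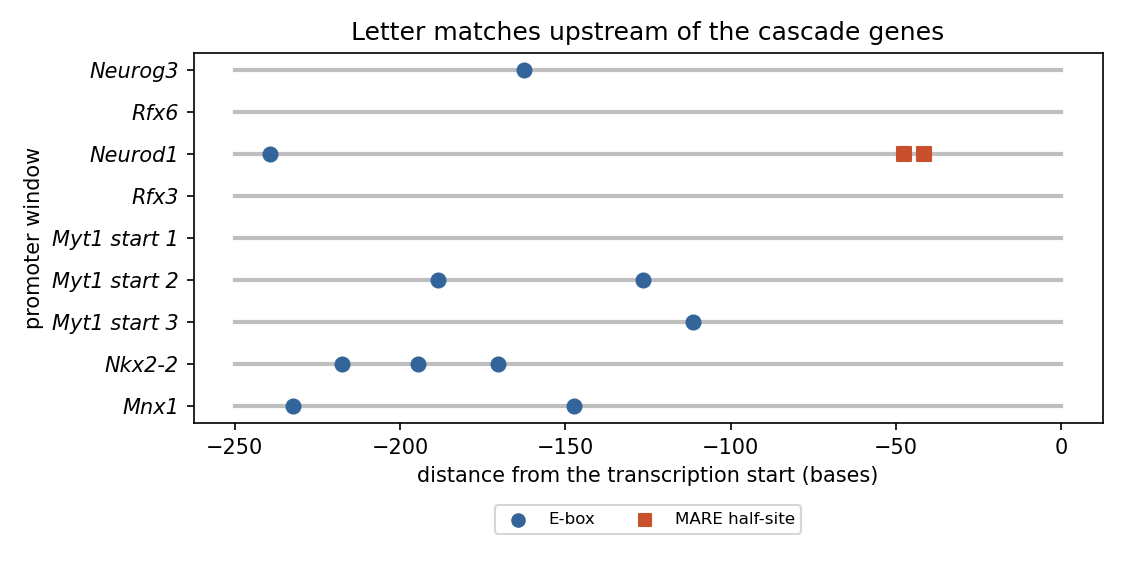
Position of E-box (circles) and MARE half-site (squares) matches in the 250 bases before the transcription start of 7 cascade genes, ordered by their difference between the arrays, with the distance from the start on the horizontal axis in bases. *Neurod1* alone holds the half-site, with 2 matches close to the start, and *Nkx2-2* has 3 E-boxes.

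Most cascade genes read higher in the *Mafk*-Tg array than in the WT array. Of the 10 genes, 4 were at least 1.2-fold higher, namely *Neurog3*, *Rfx6*, *St18* and *Pax4*, and 0 were at least 1.2-fold lower. Over all genes 7.96% passed the cutoff upward and 10.5% downward, while among the bright genes, to which 9 of the 10 belong, the shares were 5.58% and 5.87%. The 10 differences had a median of 0.21, beside -0.01 over all genes, and 9 of them were above 0. They ran from -0.020 for *Mnx1* to 0.51 for *Neurog3*. *St18* and *Pax4* lie just inside the cutoff, at ratios of 1.204 and 1.201, and *Neurod1* just outside, at 1.194. Quantile normalization left *Neurog3* and *Rfx6* as the only 2 above it.

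**Figure D2:**
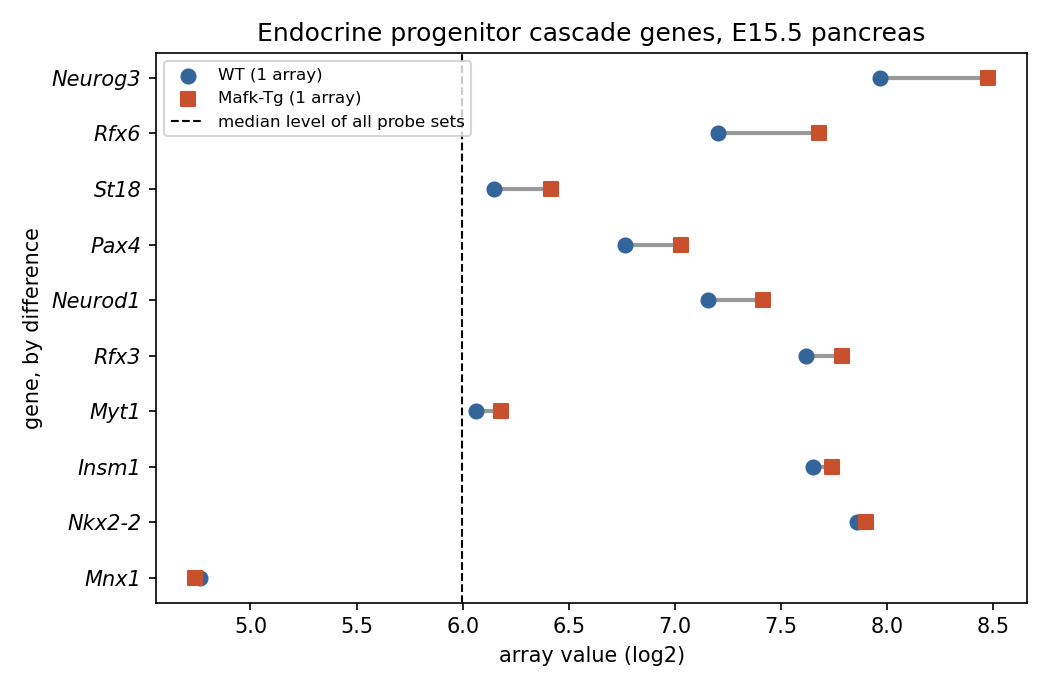
Log2 array value of each cascade gene in WT (circles) and *Mafk*-Tg (squares), ordered by the difference, with each point a single array. The dashed line is the median of all probe sets, and the *Neurog3* values go from 7.96 in WT to 8.47 in *Mafk*-Tg.

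*Neurog3*, which starts the cascade and is needed for all islet cell types, read 7.96 in WT and 8.47 in *Mafk*-Tg on the log2 scale. The difference of 0.51, or 1.42-fold, was the highest of the 10 genes and was above that of 98.9% of all genes. Among the bright genes it was above 99.5%. In RNA of a whole organ, more cells with a transcript and more transcript per cell cannot be told apart, and this holds for every gene here. Of 88 genes measured in the lists of regulators, Notch genes, progenitor genes, lineage factors and endocrine products, those with differences nearest to that of *Neurog3* over the 2 arrays were *Sst* at 0.47, *Isl1* at 0.47 and *Ppy* at 0.56. They encode the hormone somatostatin, a LIM homeodomain factor of islet cells and pancreatic polypeptide. Lists of other cells were not part of that search. *Cdx1* of the stomach and gut list, at 0.51, and the acinar gene *Cpb1*, at 0.54, lay nearer to *Neurog3* than any of them.

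Both RFX genes were higher in the *Mafk*-Tg array, but to unequal extents. *Rfx6*, which is required for the formation of most islet cell types and is on in gut endoderm as well, went from 7.20 in WT to 7.68 in *Mafk*-Tg. Its difference of 0.48, or 1.39-fold, was second to that of *Neurog3* and above that of 98.5% of all genes. *Rfx3*, a factor of ciliated cells that is also needed for islet cell differentiation, read 7.62 and 7.79. Its difference of 0.17 stayed within 1.2-fold and lay above 82.8% of all genes.

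*Pax4* and *Neurod1*, both of which NGN3 activates, had smaller differences than *Neurog3*. *Pax4*, a paired homeodomain gene that favours β- and δ-cells over α-cells, went from 6.76 in WT to 7.03 in *Mafk*-Tg, or by 0.26. *Neurod1*, a helix-loop-helix gene that keeps endocrine differentiation going, went from 7.16 to 7.41, also a difference of 0.26. *Pax4* lay above 92.1% of all genes and *Neurod1* above 91.6%. They fall on opposite sides of the cutoff by a margin far smaller than the spread among genes. The *Neurod1* window holds MARE half-sites, while *Pax4* had no window to search.

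*Nkx2-2* and *Insm1* hardly differed between the arrays. The paper, however, reports higher *Nkx2-2* in *Mafk*-Tg by quantitative RT-PCR of E15.5 pancreata. By the same method it reports higher *Neurog3*, *Pax4*, *Rfx6* and *Neurod1*, which also read higher in the *Mafk*-Tg array here. It also counts *Nkx2-2* and *Neurod1* among the genes of its array list at 1.2-fold, which the values here do not reach. That list names fewer probe sets in each direction than the 1587 higher and 2087 lower genes that pass here. The selections were therefore not alike, and the paper's text gives no rule beyond the fold. *Nkx2-2*, a homeodomain gene without which β-cells do not form, read 7.86 in WT and 7.90 in *Mafk*-Tg. Its difference of 0.043 lay above 63.1% of all genes. *Insm1*, a zinc finger gene that acts in cells leaving the epithelium, read 7.65 and 7.74, a difference of 0.086. Both are among the bright genes, with values well above the mark in each array.

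*Myt1* and *St18* are related zinc finger genes, and both lay just above the mark of brightness. *Myt1*, which NGN3 activates and which promotes endocrine differentiation, read 6.06 in WT and 6.18 in *Mafk*-Tg and so differed by 0.12. *St18*, which is expressed in endocrine progenitors and in neurons, read 6.15 and 6.41, a difference of 0.27. *Mnx1*, a homeodomain gene of the early pancreatic bud and later of β-cells, read 4.76 and 4.74. It was the only dim gene of the 10, and at such levels an array signal can be mostly background. Its difference was -0.020.

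**Figure D3:**
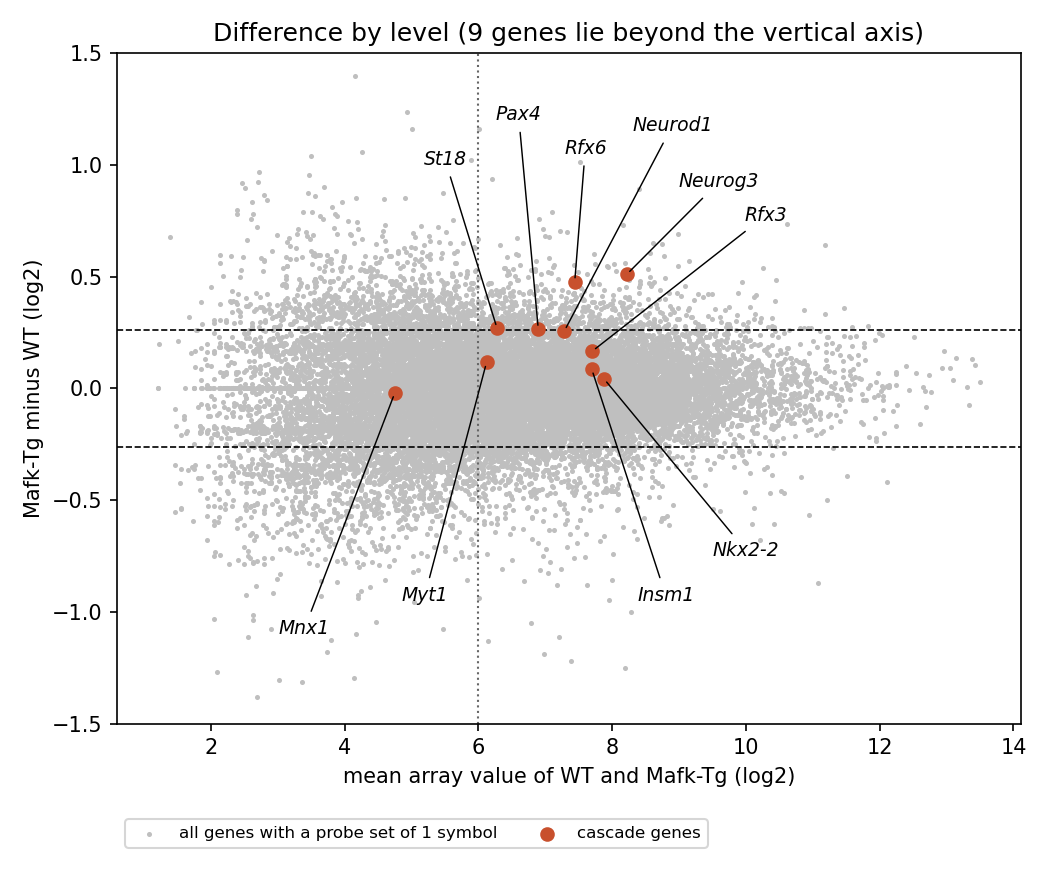
Difference between the arrays (*Mafk*-Tg minus WT, log2) against the mean log2 value of both arrays, for all 19938 genes (grey) and the 10 cascade genes (coloured and named), with dashed lines at 1.2-fold and a dotted line at the mark of brightness. *Neurog3* and *Rfx6* stand above the upper line, *St18*, *Pax4* and *Neurod1* lie on it, and 9 genes fall outside the vertical axis.

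In a list of regulators of the progenitors before *Neurog3*, 13 of 16 genes read higher in the *Mafk*-Tg array, beside 8960 of all 19938 genes. The list is mixed, since it also holds the acinar factor *Rbpjl* and *Hes1*, which represses *Neurog3*. Of 16 measured, 5 were at least 1.2-fold higher and 0 lower, with a median of 0.15. The forkhead gene *Foxa2* was higher by 0.40, *Pdx1*, a homeodomain gene of pancreatic progenitors and β-cells, by 0.37, *Prox1* by 0.31, and the zinc finger gene *Gata4* by 0.27. *Foxa1* was higher by 0.39 but is dim. *Sox9*, which maintains the trunk progenitors and helps to switch on *Neurog3*, had a difference of 0.15, *Gata6* had 0.092 and the acinar factor *Rbpjl* 0.20, all within the cutoff.

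Genes of Notch signalling, which holds *Neurog3* down in neighbouring cells, mostly read lower, by small amounts. Of 16 measured, 0 were at least 1.2-fold higher and 2 were lower. Over all genes the shares were 7.96% and 10.5%, and among the bright ones 5.58% and 5.87%. A difference below 0 was seen in 14 of the 16, beside 10291 of all 19938 genes. The median was -0.065, while the differences of bright genes had a robust SD of 0.15. The 2 lower genes were *Hey1* at -0.28 and *Dll4* at -0.27, a target gene and a ligand gene of Notch that endothelial cells also express. *Notch1*, *Notch2* and *Lfng* had -0.025, -0.023 and -0.043. The other 3 genes given here were chosen after the values were known, and each stayed within 1.2-fold. *Dll1*, the ligand that NGN3 cells display, read 6.86 in WT and 6.70 in *Mafk*-Tg. *Hes1*, the Notch target that represses *Neurog3*, and *Rbpj*, the DNA-binding partner of Notch, are counted among the 16 regulators above and not among these 16. *Hes1* read 7.63 and 7.73, and *Rbpj* read 6.41 and 6.25.

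Other genes known from endocrine progenitors were spread around 0. Of 23 measured, 1 was at least 1.2-fold higher and 2 were lower, with a median of 0.00. The higher one was the X-linked neuronal microtubule gene *Dcx* at 0.27, and quantile normalization left 0. *Cryba2*, a crystallin gene that is also on in islet cells and their progenitors, had a difference of -0.81 and the dim *Igfbpl1* one of -0.45. *Nnat*, the cell cycle inhibitor gene *Cdkn1c* and *Snai2* had -0.22, 0.20 and -0.24. *Neurod2*, a helix-loop-helix gene close to *Neurod1* that was singled out after its value had been seen, read 6.37 in WT and 6.52 in *Mafk*-Tg.

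Factors that act after the cascade or beside it, in the islet lineages, went both ways. Of 14 measured, 3 were at least 1.2-fold higher and 2 lower, with a median of 0.046. The α-cell factor *Pou3f4*, which is X-linked, was higher by 0.68, *Isl1* by 0.47 and *Pax6* by 0.27. *Nr4a2*, an orphan nuclear receptor gene, had a difference of -0.30 and *Mafa*, the large MAF gene of mature β-cells and here a dim gene, one of -0.47. *Peg3*, *Meis2* and *Etv1* had 0.029, 0.022 and 0.063. *Isl1* is also on in pancreatic mesenchyme and belongs to that list as well. The mesenchyme list had a median of -0.11, and *Isl1* was its only gene at least 1.2-fold higher. Which cells its difference comes from was not tested.

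Hormone and secretory genes of the finished islet cells were split more widely than the cascade genes. Of 19 measured, 7 were at least 1.2-fold higher and 4 lower, with a median of 0.17 and differences from -1.13 to 0.73. Among the bright genes the higher end held the granin gene *Chgb* at 0.73, the hormone gene *Pyy* at 0.69, *Ppy* and *Sst*. The lower end held *G6pc2* at -1.13 and the zinc transporter gene *Slc30a8* at -0.54. The insulin gene *Ins2*, at -0.40, and the granin gene *Chga*, at -0.32, were also lower, and both were picked with their values known. *Iapp*, *Cpe* and *Scg3* had 0.17, 0.20 and 0.14, within the cutoff. The lowest difference among the 10 cascade genes was -0.020.

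**Figure D4:**
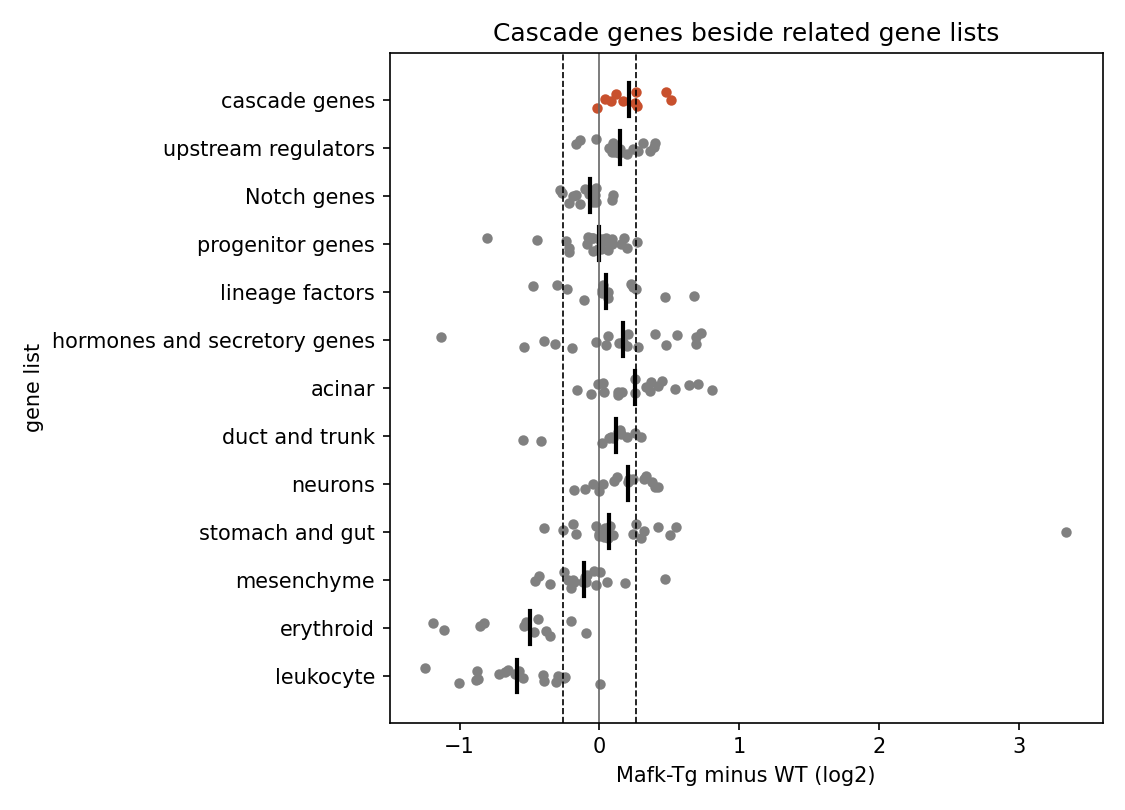
Difference between the arrays (*Mafk*-Tg minus WT, log2) of each measured gene (points) and the median (bars) of the 10 cascade genes and 12 other lists, from a single array per genotype. Dashed lines mark 1.2-fold. The cascade genes have a median of 0.21, the acinar list 0.25 and the progenitor list 0.00, and *Cym* is the single point far to the right.

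Markers of other cells went in both directions. Of 19 acinar genes 9 were at least 1.2-fold higher and 0 lower, with a median of 0.25, and their summed linear value was 56636 in WT and 62862 in *Mafk*-Tg. Of 12 duct and trunk genes 1 was higher and 2 lower, with a median of 0.12 and sums of 8069 and 8573. Of 15 neuronal genes 5 were higher and 0 lower, with a median of 0.21 and sums of 1389 and 1599. The 5 were the receptor gene *Ret* at 0.40, *Gap43* at 0.33 and *Snap25* at 0.32, all bright, and the catecholamine enzyme genes *Dbh* at 0.42 and *Th* at 0.38, both dim, while the pan-neuronal gene *Elavl3*, singled out after its value had been seen, had a difference of -0.18 and is dim. Of 20 stomach and gut genes 6 were higher and 2 lower, with a median of 0.070. Their sum went from 1454 to 2898, mostly through *Cym*, the stomach protease gene, which read 7.17 in WT and 10.51 in *Mafk*-Tg. *Cldn18* at 0.55, *Cdx1* at 0.51 and *Atp4a* at 0.30, all bright, and the dim *Pga5* at 0.42 were past the cutoff upward as well. *Cdx2*, the defining factor of intestinal epithelium that was also singled out afterwards, read 5.01 in both arrays and is dim. At least 1.2-fold lower were 15 of 18 leukocyte genes, with sums of 8529 and 5211, and 10 of 12 erythroid genes, with 3657 and 2638. Of 18 mesenchyme genes 1 was higher and 3 were lower by that much, while 14 had a difference below 0. Their sums were 17133 and 15737.

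The differences of *Neurog3* and *Rfx6* were also set beside the medians of these lists, a step added after the values had been seen. Subtracting a median lowers every gene by the same amount, so fewer genes pass the cutoff upward and more pass it downward by construction. *Neurog3* lay 0.26 above the acinar median, 0.39 above the duct and trunk median and 0.34 above the median of the hormone and secretory genes. *Rfx6* lay above the same medians by 0.22, 0.36 and 0.31. Against the acinar median 5 of the 10 cascade genes lay above 0 and 5 below, 0 passed the cutoff upward, and the dim *Mnx1*, at -0.27, passed it downward. Over all genes that step left 222 higher and 10046 lower. The part that the shares of acinar, duct, neuronal or stomach cells have in the values of the cascade genes was not tested.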

How the data were processed

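RNA of whole E15.5 pancreata was measured on GeneChip MoGene 1.0 ST arrays, 1 of WT and 1 of *Mafk*-Tg. Extraction was with Trizol per the labels and with a column kit per the paper. Normalization and probe set summaries were made by the authors with Affymetrix Expression Console. Its version and its algorithm are not stated in the labels or the paper. The deposited values are log2 values, and both arrays have a median of 6.01. Precision is limited by having a single array per genotype.

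Of 35556 probe sets, 21789 had exactly 1 gene symbol in the platform's gene table, 1621 more than 1, and 12146 have no name here. Probe sets of 1 symbol were averaged as log2 values for each gene. Groups came from the genotype labels. No test was run, and no replicate exists. Of 263 list entries, 243 were measured. The genes and the 14 lists beside them were chosen with earlier results of these data known. Named genes were the 10 members, *Mafk*, *Xist* and the Y-linked genes. The 3 genes nearest to *Neurog3* in the regulator, Notch, progenitor, lineage factor and endocrine product lists were also named. Of a list, up to 5 genes past the cutoff with the largest difference in either direction were taken, bright genes first. Up to 3 within the cutoff with the highest level were added. Of the lists of other cell types not all of these are named, and genes named outside the rule are said to be so. Alternatives were quantile normalization, equal medians, subtracting a loess curve fitted to the difference by level (span 0.3), the brightest probe set, cutoffs of 1.1-fold and 1.5-fold, and leaving out dim genes. Subtracting a list's median was added after the values had been seen. Steps were tested on simulated data. The planted differences were larger than that of any of the 10 members, lay in bright genes only, and had less noise than the spread seen here. That check therefore does not bear on calls near the cutoff. The software was Python 3.11.15 with statsmodels 0.14.6, matplotlib 3.10.9, pandas 2.3.3 and numpy 2.4.6. Promoter sequences are from RefSeq, and array values carry no coordinates.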

Additional observations from a re-analysis of the deposited data

How the results depend on the processing

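No paired analysis was possible because each genotype has 1 array and the labels give no replicate numbers, and for the same reason no array could be left out. The count of 4 cascade genes at least 1.2-fold higher was 3 with equal medians, 4 after the loess or with the brightest probe set, 6 at a cutoff of 1.1-fold, 2 after quantile normalization and 0 at 1.5-fold, where over all genes 139 were higher and 253 lower beside 1587 and 2087 at 1.2-fold. Against the acinar median 0 were higher and 1, *Mnx1*, was lower, with a median of -0.044. Against the duct median 2 were higher, with a median of 0.093, and against the hormone and secretory median 2, with a median of 0.041. These subtractions move all genes downward by construction, leaving 222 higher and 10046 lower against the acinar, 621 and 4883 against the duct and 395 and 6660 against the hormone and secretory median. Under the rescalings and the brightest probe set, *Neurog3* stayed between 0.51 and 0.52 and *Rfx6* between 0.47 and 0.48, while *Mnx1* went from -0.023 to 0.0042. Dim genes pass the cutoff more often, 27.8% in either direction against 11.5% of bright ones.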

Other observations

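Relatives of the cascade genes were mostly dim. Of 23 measured genes of the same families, 15 were dim, beside 8526 of all 19938 genes. In the *Mafk*-Tg array 0 were at least 1.2-fold higher and 6 were lower, with a median difference of -0.058. *Nkx2-5*, a homeodomain gene of heart and spleen mesenchyme, was the only bright one of the 6, with 8.22 in WT and 7.76 in *Mafk*-Tg. *Nkx2-9* at -0.61, *Insm2* at -0.40, *Neurog1* at -0.31 and *Myt1l* at -0.27 were lower at dim levels, where 16.6% of all genes passed the cutoff downward. The RFX genes *Rfx7* and *Rfx1*, with 8.47 and 7.36 in WT, had differences of -0.058 and -0.16, beside 0.48 for *Rfx6* and 0.17 for *Rfx3*. The other 4 RFX relatives measured were picked with their values known. *Rfx5* had 0.21, above *Rfx3*, the dim *Rfx8* had 0.063, and *Rfx2* and the dim *Rfx4* both had -0.20.

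*Neurog2*, the helix-loop-helix gene of neurons that was singled out after its value had been seen, read 5.24 in both arrays, and its difference was exactly 0. The same held for 687 of the 19938 genes and for 0 of the 10 cascade genes.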
